A study of Mus musculus with 40 samples.

Results

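Glucose and lactate handling in the mouse cortex after repeated head impact was followed through 8 genes: Slc16a1, Slc2a1, Slc2a3, Ldha, Ldhb, Hk1, Pfkp and Pkm. All 8 were in the deposited table, with 9 transcripts among the 6831 transcripts of 5865 gene symbols, since Pkm had 2 transcripts and each other gene had 1. The list was selected on measured values in 1 respect: Slc16a1 was chosen by its level in impact against sham mice given saline, whereas the other genes were added for their roles in the same pathway with results of these data known. The impact comparison under saline is therefore given for these genes as a description, with no test.

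RNA was sequenced from the dissected cortex of male C57BL/6 mice aged 12 weeks. The mice had received an intraperitoneal injection of saline or of memantine, which blocks the open channel of NMDA-type glutamate receptors, each day 1 h before the impacts (high-frequency head impact, HF-HI) or a sham procedure, in which mice were anaesthetised and handled in the same way but not struck. Tissue was taken 24 h after injury. There were thus 4 groups of 10 libraries, sham and HF-HI under saline and sham and HF-HI under memantine, and every group had been anaesthetised with isoflurane and injected daily, and no group was left untouched. The labels number the libraries of a group from 1 to 10 and do not say in words that each came from a separate mouse, so the p-values measure the spread between libraries. The series description gives 4 samples a group, whereas the labels and the table hold 10, and this difference could not be settled.

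The libraries held 13322404 to 17529644 reads in the table. Levels are given as normalised read counts, which are reads divided by the size factor of the library, and changes on the deposited log2 scale are smaller than those of the counts because that scale is compressed at low counts. A change of 1 unit in the log2 count appeared as 0.36 units at a count of 800, as 0.70 units at 5000 and as 0.86 units at 15000. Of 14 cortex marker genes 12 were in the table and Fezf2 and Foxp2 were not, whereas all 11 neuronal markers were there. Striatal marker transcripts were present as well, and 6 of 16 were lower after impact under saline and 0 higher (unadjusted p under 0.05). Over all transcripts 4.95% were lower in that comparison and 9.53% passed in either direction. The median change over the 16 transcripts was -0.11 on the deposited log2 scale. After impact under memantine 0 of the 16 passed, where 4.61% of all transcripts passed in either direction and 2.23% were lower. The median change over the 16 was then -0.03. Ttr, a transcript of the choroid plexus, ranged from 74.5 to 22031 normalised reads between libraries. In bulk tissue, fewer cells of a type and less RNA per cell cannot be told apart.

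The brain takes up glucose across the endothelium mainly through GLUT1 (Slc2a1) and into neurons mainly through GLUT3 (Slc2a3). Hexokinase 1 (Hk1) traps it, phosphofructokinase (Pfkp is the platelet-type subunit) commits it to glycolysis, and pyruvate kinase (Pkm) makes pyruvate. Lactate dehydrogenase interconverts pyruvate and lactate, its A subunit (Ldha) favouring lactate and its B subunit (Ldhb) favouring pyruvate. MCT1, encoded by Slc16a1, moves lactate, pyruvate and ketone bodies with a proton across the membranes of endothelial cells, oligodendrocytes and astrocytes.

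Sequence is shown for the start regions of Slc16a1 and Ldha and for the mutually exclusive exons of the Pkm transcripts. Slc16a1 and Ldha were the members for which all 10 HF-HI libraries lay on the same side of the sham mean under saline. Slc16a1 spans chr3:104638668-104658462 on the plus strand of mm10 in 5 exons. The 250 bases before its RefSeq start (chr3:104638414-104638663, plus strand, GRCm38.p6) and those before the upstream of 2 RefSeq starts of Ldha (chr7:46845554-46845803, plus strand) follow, with capitals for ACGTG or GCGTG on either strand, the core letters of the hypoxia response element. ACGTG is also part of the E-box CACGTG.
Slc16a1: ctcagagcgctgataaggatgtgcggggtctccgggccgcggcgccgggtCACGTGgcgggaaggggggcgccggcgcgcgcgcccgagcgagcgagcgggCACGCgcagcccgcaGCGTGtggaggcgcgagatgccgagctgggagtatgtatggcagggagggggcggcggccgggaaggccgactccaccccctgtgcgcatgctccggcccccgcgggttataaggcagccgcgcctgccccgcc
Ldha: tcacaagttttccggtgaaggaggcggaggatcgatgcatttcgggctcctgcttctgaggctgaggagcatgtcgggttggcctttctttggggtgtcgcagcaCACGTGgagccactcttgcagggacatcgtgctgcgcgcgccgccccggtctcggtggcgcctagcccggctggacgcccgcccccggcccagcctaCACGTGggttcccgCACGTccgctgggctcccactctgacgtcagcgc
Matches were counted on both strands over the full RefSeq windows of 300 bases, which run 50 bases past the start. The E-box reads the same on both strands, so each E-box counts as 2 of the ACGTG matches. Slc16a1 had ACGTG 3 times, GCGTG 2 times and the E-box 1 time. The Ldha window had ACGTG 5 times, GCGTG 2 times and the E-box 2 times. RefSeq windows were found for 7 of the 8 genes, 10 windows in all, and 8 of these windows, at least 1 for each of the 7 genes, held ACGTG or GCGTG on either strand. The Pkm window that holds the starts of both measured Pkm transcripts (chr9:59656326-59656625) had neither motif. The match for Pkm was in the window of a later start (chr9:59656977-59657276). Of all 32851 mouse windows of this length 43.8% held either motif and 7.15% held CACGTG. No other member window held CACGTG, and the 2 genes shown had been picked by their values under saline. A match of letters is a description and not a bound site.

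Slc16a1 was higher after impact in mice given saline. In saline sham libraries its normalised count ran from 642 to 755 with a median of 707, and in saline HF-HI libraries from 724 to 947 with a median of 825. The groups overlapped in few libraries: 9 of 10 HF-HI libraries lay above the highest sham library, and only replicate 6 (724) lay within the sham range. The means were 696 ± 37.7 and 846 ± 73.8 (SD, n = 10 each), a rise of 21.5% and 2.55 times the pooled SD. On the deposited log2 scale the change was 0.10 (SE 0.02). From counting alone, the libraries would vary by 3.63% (coefficient of variation) at the mean level of Slc16a1, against 5.41% between the saline sham libraries and 8.73% between the saline HF-HI libraries.

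**Figure D1:**
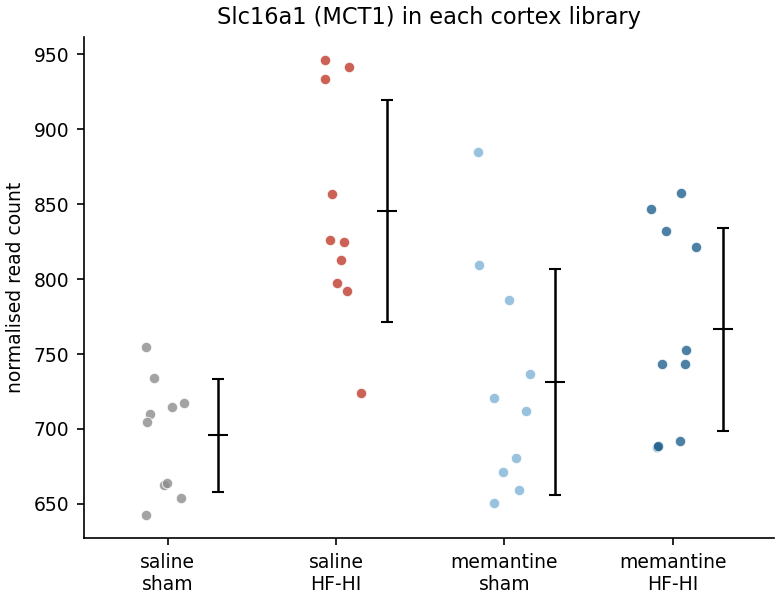
Normalised read count of Slc16a1 (vertical axis, not starting at 0) in each of the 10 libraries of the 4 groups, with the mean and SD as a black bar beside the points. The saline sham libraries lie between 642 and 755, and 9 of 10 saline HF-HI libraries lie above them, whereas both memantine groups spread over 651 to 885.

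Under memantine the impact and sham groups of Slc16a1 overlapped almost fully. Memantine sham libraries ran from 651 to 885 with a median of 717, and memantine HF-HI libraries from 688 to 858 with a median of 748. No HF-HI library lay above the highest sham library, replicate 1, and 7 of 10 lay above the sham mean. The means were 731 ± 75.3 and 767 ± 67.7 (SD, n = 10 each), a difference of 4.85%. These libraries took no part in the choice of the gene, and the change of 0.02 on the deposited log2 scale (95% interval -0.02 to 0.06) did not pass the test (limma, p = 0.219, Benjamini-Hochberg adjusted p = 0.967 over all transcripts; two-sided permutation test, p = 0.267). A p that misses the threshold does not show that the groups were alike.

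The 4 group means of Slc16a1 rose from saline sham through memantine sham and memantine HF-HI to saline HF-HI. Neighbours in that order differed by 35.4 reads for the first pair and again by 35.4 reads for the second pair, 0.59 and 0.50 times their pooled SD, and by -78.9 reads (memantine HF-HI minus saline HF-HI) for the last pair, 1.11 times their pooled SD. The change with impact was smaller under memantine than under saline by 0.08 on the deposited log2 scale (SE 0.03), which is given without a test because it holds the comparison that chose the gene. For the same reason the drug comparisons of Slc16a1 are descriptions. Memantine HF-HI mice differed from saline HF-HI mice by -9.33%, with 8 of 10 libraries under the saline HF-HI mean, and memantine sham mice lay 5.09% above saline sham mice. Memantine sham replicate 1, at 885, carried much of that last difference: without it the memantine sham mean was 714 ± 55.7 (SD, n = 9), 2.63% above saline sham, and the first and second steps of the order were 18.3 and 52.5 reads. The change with impact under memantine was then 0.04 on the deposited log2 scale and still did not pass (limma, p = 0.0631).

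The plot of changes shows all 9 transcripts in the 4 comparisons. Under saline 4 of the 9 were higher and 5 lower after impact, with a median change of -0.0037 on the deposited log2 scale, beside -4.65e-05 over all transcripts. Under memantine 5 were higher and 4 lower. None of the 9 passed an unadjusted p under 0.05 for impact under memantine in limma, where 4.61% of all transcripts did (0.0146% with a Benjamini-Hochberg adjusted p under 0.1). Memantine against saline was tested for the 8 transcripts other than Slc16a1. Their genes were listed with earlier results of these data known, so their p-values, here and below, are descriptive. Both drug comparisons also share their saline libraries with the impact comparison under saline. In sham mice 1 of 8 passed, at a background of 7.51%, and in HF-HI mice 1 of 8 passed, at a background of 3.91%. No member passed the adjusted threshold in any tested comparison, which 0.0293% of all transcripts passed for memantine in sham mice and 0% for memantine in HF-HI mice.

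**Figure D2:**
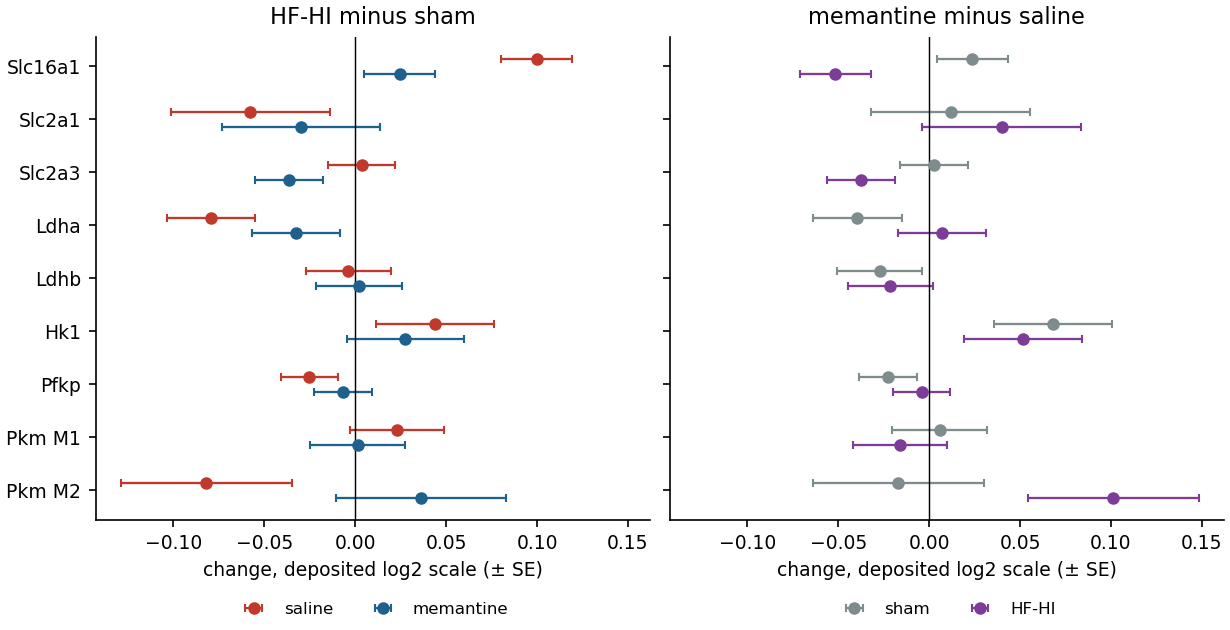
Change of each member transcript on the deposited log2 scale (horizontal axis, points with SE bars) for HF-HI minus sham on the left and memantine minus saline on the right. Slc16a1 stands at 0.10 under saline and 0.02 under memantine, Ldha lies below 0 under both, and Pkm M2 lies below 0 for impact under saline and above 0 for memantine in HF-HI mice.

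Among the glucose carriers, Slc2a1 was the more variable. Its count ran from 996 to 1598 (median 1226) in saline sham, from 874 to 1404 (median 1172) in saline HF-HI, from 945 to 1621 (median 1268) in memantine sham and from 914 to 1672 (median 1202) in memantine HF-HI libraries. The groups overlapped throughout, with coefficients of variation of 15.3% to 17.1%. Impact under saline went with a change of the mean of -8.87%, and under memantine the change was -0.03 on the deposited log2 scale (95% interval -0.12 to 0.06; limma, p = 0.500). With 1 library left out it ran from -0.054, without memantine HF-HI replicate 5, to -0.011, without memantine sham replicate 10, and did not pass in any of the 20 fits. Neither drug comparison of Slc2a1 passed the test.

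Slc2a3, the neuronal carrier, was steadier and lay lowest in memantine HF-HI mice. Its count ran from 2620 to 2909 (median 2761) in saline sham, from 2583 to 3023 (median 2744) in saline HF-HI, from 2581 to 3115 (median 2770) in memantine sham and from 2467 to 2839 (median 2645) in memantine HF-HI libraries. Of the memantine HF-HI libraries, 4 of 10 lay under the lowest library of memantine sham. The mean of 2647 ± 141 (SD, n = 10) compared with 2764 ± 155 in memantine sham and with 2767 ± 144 in saline HF-HI. Both differences, -0.04 on the deposited log2 scale, missed the threshold (limma, p = 0.0588 and p = 0.0531; adjusted p = 0.967 and near 1), and the first had p = 0.0886 in a two-sided permutation test. Leaving out 1 library brought the first under 0.05 for memantine sham replicates 1, 4 and 6 and memantine HF-HI replicates 4, 5 and 8 (p from 0.0282 to 0.0442). It did so for the second for saline HF-HI replicates 3, 5, 7 and 9 and memantine HF-HI replicates 4, 5, 8 and 9 (p from 0.0252 to 0.0467). Library weights also brought the first under 0.05 (p = 0.0480), and quantile normalisation the second (p = 0.0458). As a share of normalised count per kilobase of transcript, Slc2a3 made up 64.3% to 66.8% of the 2 carriers in the 4 group means.

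Of the lactate dehydrogenase subunits, Ldha was lower after impact under saline while Ldhb stayed near its sham level. Ldha ran from 2822 to 3468 (median 2959) in saline sham and from 2475 to 2939 (median 2757) in saline HF-HI libraries. All 10 HF-HI libraries lay under the sham mean and 6 lay under the lowest sham library. The means were 3017 ± 217 and 2751 ± 171 (SD, n = 10 each), a change of -8.84% in the saline contrast, which is not tested here. In memantine sham libraries Ldha ran from 2587 to 3183 (median 2895), and in memantine HF-HI libraries from 2436 to 3027 (median 2791). These overlapped, with 8 of 10 HF-HI libraries under the sham mean, and the change of -0.03 on the deposited log2 scale (95% interval -0.08 to 0.02) did not pass the test (limma, p = 0.186).

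Ldhb ran from 5100 to 5891 (median 5418) in saline sham, from 4881 to 5665 (median 5412) in saline HF-HI, from 4856 to 5767 (median 5270) in memantine sham and from 4875 to 5939 (median 5256) in memantine HF-HI libraries. No comparison of Ldhb that was tested passed, and the change with impact under memantine was 0.0022 on the deposited log2 scale (95% interval -0.05 to 0.05; limma, p = 0.926). As a share of both subunits, per kilobase of transcript, Ldhb made up 68.6% ± 1.04 in saline sham and 70.5% ± 1.17 in saline HF-HI libraries (SD, n = 10 each), and 8 of 10 HF-HI libraries lay above the highest sham library, at 69.8%. Under memantine the shares were 69.0% ± 1.81 and 69.8% ± 2.08, and they did not pass a two-sided permutation test (p = 0.354, adjusted p = 0.869 over 9 tests of shares). Replicate 1 of each memantine group had the highest share of its group, 72.9% in sham and 74.8% in HF-HI. Ldha was lowest in the same replicate 1 of both groups. Those libraries also had the lowest neuronal marker sums of all 40 (ranks 39 in sham and 40 in HF-HI, from the highest). A link of these sums with the share was not tested. For each subunit the share rests on 1 of 3 curated RefSeq transcripts, the only 1 in the table.

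**Figure D3:**
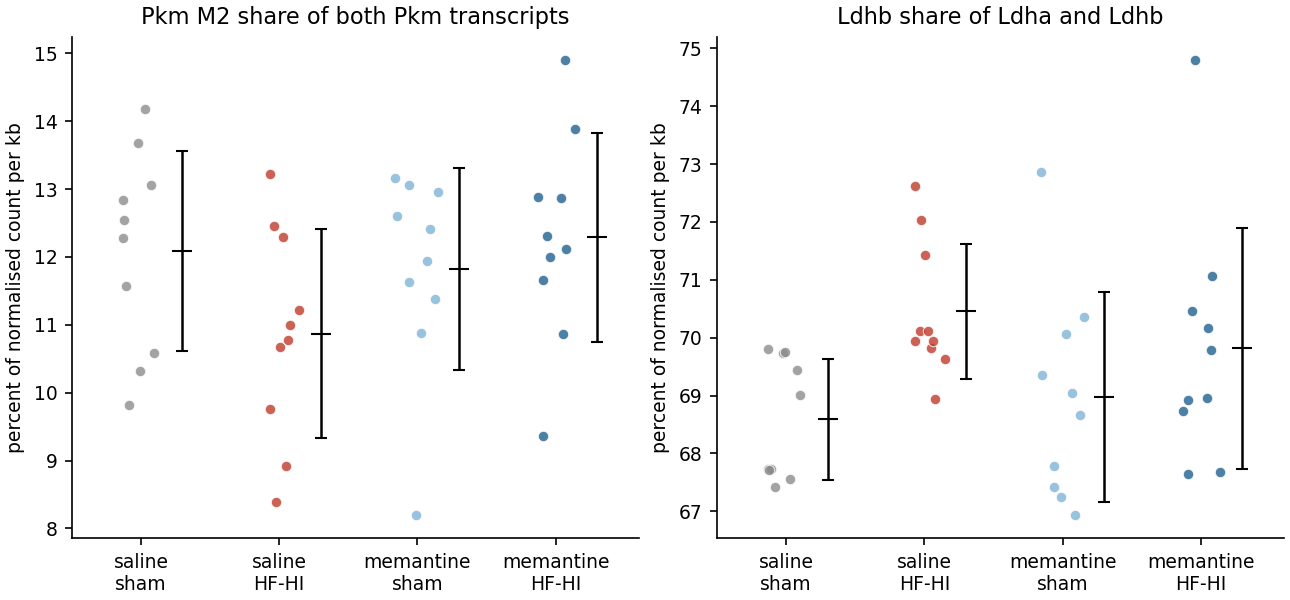
Share of the Pkm M2 transcript in both Pkm transcripts on the left and of Ldhb in Ldha and Ldhb on the right, in percent of normalised count per kilobase (axes do not start at 0), for each of 10 libraries a group with the mean and SD. The Ldhb share of saline HF-HI libraries sits mostly above that of saline sham libraries, and the Pkm M2 share overlaps in every group, with its lowest mean of 10.9% in saline HF-HI.

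At the entry to glycolysis, Hk1 was higher with memantine in sham mice. It ran from 4755 to 5942 (median 5083) in saline sham and from 5136 to 6444 (median 5435) in memantine sham libraries. The groups overlapped, with 8 of 10 memantine libraries above the saline mean and 2 above the highest saline library. The means were 5200 ± 349 and 5560 ± 433 (SD, n = 10 each), a rise of 6.92% that passed the unadjusted test (limma, 0.07 on the deposited log2 scale, 95% interval 0.0027 to 0.13, p = 0.0416) and not the adjustment (Benjamini-Hochberg adjusted p = 0.641). The call was lost when any of saline sham replicates 1, 3, 4, 7, 8 and 10 or memantine sham replicates 1, 7, 9 and 10 was left out (p from 0.0560 to 0.113), and likewise with quantile normalisation (p = 0.0762) and with library weights (p = 0.0563). In HF-HI mice Hk1 ran from 4858 to 6265 (median 5337) under saline and from 5216 to 6414 (median 5711) under memantine. That difference of 5.10% did not pass (limma, p = 0.118), but passed without saline HF-HI replicate 4 (p = 0.0354). Impact under memantine gave 0.03 on the deposited log2 scale (95% interval -0.04 to 0.09) and did not pass.

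Pfkp varied little between libraries, with coefficients of variation of 2.66% to 3.73%. It ran from 5329 to 6015 (median 5571) in saline sham, from 5119 to 5714 (median 5505) in saline HF-HI, from 5193 to 5737 (median 5529) in memantine sham and from 5226 to 5742 (median 5431) in memantine HF-HI libraries. The 4 groups overlapped and no tested comparison passed. In sham mice 9 of 10 memantine libraries lay under the saline mean, with a change of -0.02 on the deposited log2 scale (limma, p = 0.158), and quantile normalisation turned this into a call (change -0.04, p = 0.0151).

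Pkm gave 2 transcripts with mutually exclusive forms of an exon, exon 9 of 11 in both. Their products are the M1 enzyme of neurons and muscle and the M2 enzyme, which is common in dividing cells and astrocytes. The transcripts also differed at their ends and in length, with 2041 bases for M1 and 2432 for M2. The M1 exon (NM_001253883, chr9:59675029-59675195, plus strand, mm10) and the M2 exon (NM_011099, chr9:59675568-59675734) each have 167 bases and follow with the 64 bases that differ in capitals.
M1 exon: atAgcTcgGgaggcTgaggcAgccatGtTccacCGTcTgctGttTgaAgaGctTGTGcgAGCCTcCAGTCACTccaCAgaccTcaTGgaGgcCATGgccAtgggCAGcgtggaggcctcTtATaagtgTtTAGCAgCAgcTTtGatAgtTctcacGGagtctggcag
M2 exon: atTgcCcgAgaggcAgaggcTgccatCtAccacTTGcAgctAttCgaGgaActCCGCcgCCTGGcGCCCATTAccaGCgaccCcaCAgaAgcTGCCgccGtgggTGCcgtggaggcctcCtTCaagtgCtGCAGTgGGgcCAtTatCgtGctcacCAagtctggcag
The transcripts had 8 of 11 exons in common with the same ends, so most reads of Pkm fit both. The split between them was an estimate of the counting step and need not rest on exon 9 alone. The table held 2 of 11 curated RefSeq transcripts of Pkm.

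The M1 transcript was the most abundant member per kilobase. Its count ran from 13715 to 16190 (median 14600) in saline sham, from 14299 to 16784 (median 14990) in saline HF-HI, from 13764 to 15867 (median 14876) in memantine sham and from 13838 to 15768 (median 15036) in memantine HF-HI libraries. The groups overlapped, and neither the drug comparisons nor impact under memantine passed (limma, p = 0.543 or above).

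The M2 transcript was higher with memantine in HF-HI mice. It ran from 2044 to 3126 (median 2449) in saline sham, from 1714 to 2722 (median 2172) in saline HF-HI, from 1687 to 2787 (median 2417) in memantine sham and from 1894 to 2989 (median 2508) in memantine HF-HI libraries. The saline HF-HI group lay lowest, and 9 of 10 memantine HF-HI libraries lay above its mean, but the ranges overlapped. The means of 2198 ± 313 and 2490 ± 287 (SD, n = 10 each) differed by 13.3%, which passed the unadjusted test (limma, 0.10 on the deposited log2 scale, 95% interval 0.0063 to 0.20, p = 0.0373) and not the adjustment (Benjamini-Hochberg adjusted p near 1). With both Pkm transcripts summed the difference was 0.0074 (limma, p = 0.752). The call for M2 was lost without any of saline HF-HI replicates 2, 3, 7 and 8 or memantine HF-HI replicates 4, 6, 8 and 9 (p from 0.0507 to 0.0906). The M2 share of Pkm, per kilobase, was 12.1%, 10.9%, 11.8% and 12.3% in sham and HF-HI libraries under saline and then in sham and HF-HI libraries under memantine, and the difference between the HF-HI groups gave p = 0.0554 in a two-sided permutation test, the lowest of the 9 tests of shares (adjusted p = 0.499).

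Compared per kilobase of transcript in saline sham libraries, the levels rose from Slc16a1 (157) through Slc2a1 (383), Slc2a3 (696), Pkm M2 (1001), Hk1 (1216), Pfkp (1354), Ldha (1900) and Ldhb (4146) to Pkm M1 (7284), in normalised reads per kilobase. The SD between libraries was 8.51 for Slc16a1 and 58.6 for Slc2a1, so those neighbours stood apart. Every neighbouring pair in that order differed by more than the SD of either transcript. Hk1 (SD 81.6) and Pfkp (SD 50.5) lay closest together, as the plot of levels shows. By mean count Slc16a1 ranked 1437th from the bottom of the 6831 transcripts, whose lowest mean was 549 reads.

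**Figure D4:**
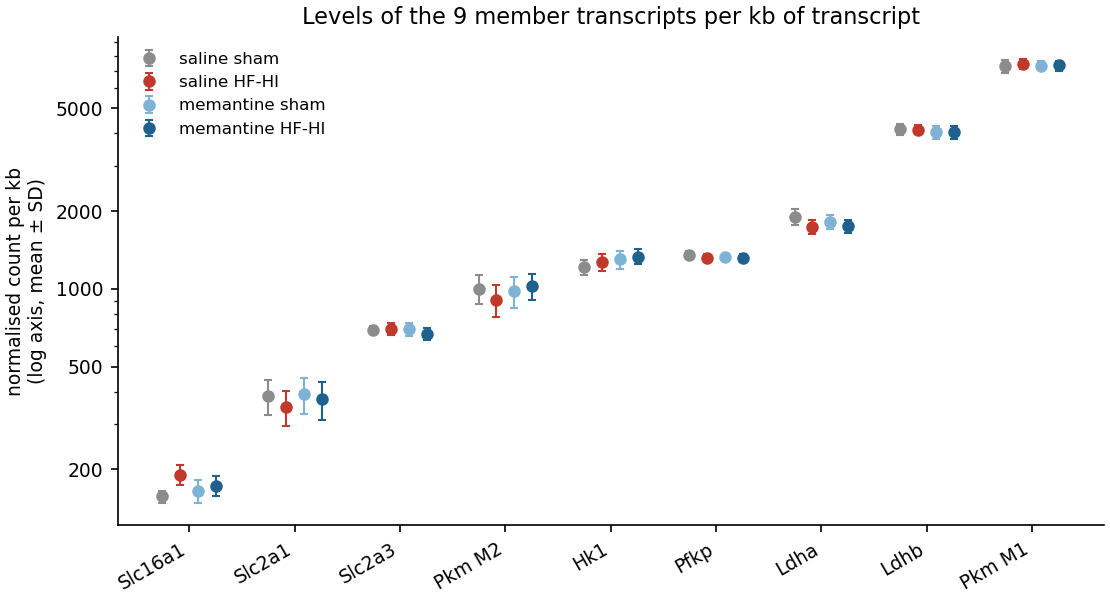
Mean level of each member transcript in normalised reads per kilobase (log axis, bars give the SD over 10 libraries) in the 4 groups, ordered by the saline sham level. Levels span from 157 for Slc16a1 to 7284 for Pkm M1 in saline sham, and the group order within a gene is small beside the differences between genes.

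With the group means removed, the transcripts most like Slc16a1 over the 40 libraries were Nr3c1 (Pearson's r = 0.75), B2m (0.68), Eif5a2 (0.67), Lgmn (0.67) and Sec11c (0.66), and those most opposed were Trank1 (-0.68), Cracdl (-0.67) and Plxna2 (-0.66). Nr3c1 encodes the glucocorticoid receptor, B2m the light chain of class I histocompatibility molecules and Lgmn a lysosomal protease. These are the extremes of 6830 values that share libraries and scaling, so they are a description without a p. The change of Nr3c1 with impact, 0.10 under saline and 0.02 under memantine on the deposited log2 scale, is given beside that of Slc16a1, 0.10 and 0.02.

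The members did not move as a block between libraries. Over the 36 pairs, with group means removed, r ran from -0.38 for Slc16a1 with Slc2a3 to 0.58 for Ldha with Pfkp, with a median of 0.03. Ldha and Slc2a3 had 0.56, and Slc16a1 and Ldha had -0.34.

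Levels of cell type markers moved with some members between libraries. Taken as the mean deposited level of each list with group means removed, the 21 oligodendrocyte transcripts had r = 0.52 with Slc16a1, -0.71 with Ldha and -0.52 with Pfkp, and the 6 microglial transcripts had 0.50 with Slc16a1 and -0.49 with Slc2a1. The oligodendrocyte counts were also summed, a measure unlike the mean deposited level used for r. These sums overlapped between groups. They ran from 58921 to 84071 (median 69828) in saline sham and from 58533 to 87660 (median 71401) in saline HF-HI libraries. Under memantine they ran from 63901 to 84291 (median 73305) in sham and from 62834 to 79978 (median 69054) in HF-HI libraries. After impact 1 of 21 oligodendrocyte transcripts was called higher under saline and none lower, and under memantine 1 was called higher and 1 lower, where 4.58% of all transcripts were called higher and 4.95% lower under saline, and 2.39% and 2.23% under memantine. The highest of all 40 sums was that of saline HF-HI replicate 10, where Slc16a1 stood at 933, and the next was that of memantine sham replicate 1, where it stood at 885. The third was that of saline sham replicate 7, where Slc16a1 stood at 664, and the lowest that of saline HF-HI replicate 1, where it stood at 826.

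For the 7 endothelial transcripts, the sums ran from 8742 to 10089 (median 9689) in saline sham and from 9200 to 10179 (median 9421) in saline HF-HI, with 2 of 7 called higher under saline and 1 of 7 under memantine, and Cldn5, Pecam1 and Kdr were not in the table. Microglial sums ran from 5126 to 6308 (median 5675) and from 5585 to 6272 (median 6010), with 2 of 6 called higher under saline and 2 of 6 under memantine, and Tmem119 and Aif1 were not in the table. Astrocyte sums ran from 130687 to 148934 and from 139411 to 147330, with 2 of 17 called higher under saline and none lower, and 2 higher and 1 lower under memantine. The shares over all transcripts are those given for the oligodendrocyte list. None of the 2 pericyte transcripts was called, and blood markers were not in the table. The part of any of these cell types in the values of Slc16a1 or Ldha was not tested.

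**Figure D5:**
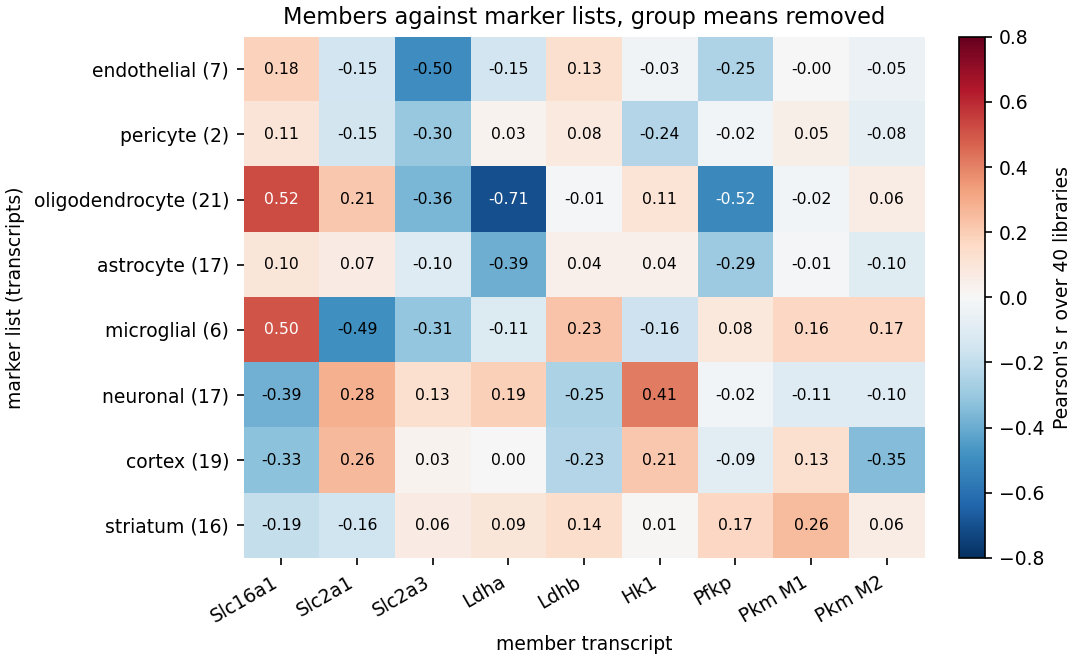
Pearson's r over 40 libraries between each member transcript (columns) and the mean deposited level of the marker lists (rows, with the number of transcripts in the table), after the group means were removed. The choroid plexus list, with only Ttr in the table, is not shown. Slc16a1 has its highest values with oligodendrocyte (0.52) and microglial (0.50) markers, and Ldha its lowest with oligodendrocyte markers (-0.71).

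Other genes of the pathway were taken from 9 lists with the members left out, which held 150 symbols, of which 71 with 83 transcripts were in the table. The table had 2 of 17 symbols for monocarboxylate carriers and their chaperones, Bsg and Emb, and none of the other Slc16a genes. Bsg encodes basigin, which brings MCT1 to the cell surface, and neither Bsg nor Emb was called in any of the 4 comparisons. Of 11 other glucose carriers, Slc2a13 and Slc45a1 were in the table and neither was called.

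After impact under saline 9 of 83 transcripts were called (4 higher, 5 lower), a share of 10.8% at the background of 9.53% of all transcripts (4.58% higher, 4.95% lower; 0.205% with an adjusted p under 0.1). The median change over the 83 was 0.0051 on the deposited log2 scale. The lists were drawn up with earlier results of these data known, so the p-values here and in the comparisons below are descriptive. Pdk1, a kinase that inhibits pyruvate dehydrogenase, rose from 1472 ± 60.2 to 1559 ± 70.5 (SD, n = 10 each; limma, unadjusted p = 0.00778). Got2, of the malate-aspartate shuttle, rose from 3323 ± 145 to 3480 ± 155 (limma, unadjusted p = 0.0166), and Bpgm, which makes 2,3-bisphosphoglycerate, from 861 ± 64.3 to 918 ± 46.2 (p = 0.0321). Among the lower transcripts were 2 of the oxygen-sensing pathway, Vhl (747 ± 50.8 to 697 ± 44.6, limma, unadjusted p = 0.00867) and Egln1 (1615 ± 102 to 1533 ± 77.7, p = 0.0324). Ppp1r3c, a glycogen-targeting subunit of protein phosphatase, fell from 1127 ± 93.2 to 1030 ± 57.4 (limma, unadjusted p = 0.0156), with 10 of 10 HF-HI libraries under the sham mean. No list transcript passed the Benjamini-Hochberg adjustment at 0.1 in any comparison. Without saline HF-HI replicate 8 the count was 5.

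By list, impact under saline called 1 of 17 glycolytic, 2 of 18 lactate and pyruvate, 1 of 12 glycogen, 2 of 11 redox shuttle, 1 of 4 ketone and 2 of 15 HIF pathway transcripts, and none of 2 pentose phosphate transcripts. Of the 2 called in the lactate and pyruvate list 1 was higher and 1 lower, and both called in the HIF pathway list were lower. Called or not, 10 of the 15 HIF pathway transcripts were higher, with a median change of 0.0051 on the deposited log2 scale.

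Under memantine 5 of 83 were called after impact (3 higher, 2 lower), a share of 6.02% beside 4.61% of all transcripts (2.39% higher, 2.23% lower). Mxi1, a MAX-binding repressor and target of HIF, rose from 687 ± 142 to 871 ± 128 (SD, n = 10 each; limma, unadjusted p = 0.00243, adjusted p = 0.809), with 8 of 10 libraries above the sham mean. Pdk1 rose from 1536 ± 68.1 to 1616 ± 74.4 (limma, unadjusted p = 0.0157), so it was called after impact with saline and with memantine. In sham mice Pdk1 was also higher with memantine than with saline (change 0.03, limma on values summed by symbol, unadjusted p = 0.0438). Gpd1, glycerol-3-phosphate dehydrogenase, fell from 1149 ± 93.2 to 1039 ± 111 (limma, unadjusted p = 0.00959). Aldoa, fructose-bisphosphate aldolase, had 1 transcript called higher (NM_007438, p = 0.0422) and 1 called lower (NM_001177307, p = 0.0491), and with its transcripts summed the change was -0.02 on the deposited log2 scale (limma, p = 0.545). The count was 3 without any of memantine sham replicates 2, 3 and 7 or memantine HF-HI replicates 5, 8 and 10.

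Memantine against saline called 4 of 83 in sham mice (4 higher), a share of 4.82% beside 7.51% (3.67% higher, 3.84% lower), and 2 of 83 in HF-HI mice (1 higher, 1 lower), a share of 2.41% beside 3.91% (1.52% higher, 2.39% lower). In sham mice Slc25a12, the aspartate-glutamate carrier of neurons, rose from 2422 ± 88.9 to 2515 ± 86.0 (limma, unadjusted p = 0.0251), Pfkm, the muscle-type phosphofructokinase, from 6079 ± 408 to 6349 ± 239 (p = 0.0319), and Bnip3l, a mitophagy receptor, from 2129 ± 108 to 2211 ± 58.9 (p = 0.0350). In HF-HI mice Mxi1 rose from 734 ± 147 to 871 ± 128 (limma, unadjusted p = 0.0220) and Bpgm fell from 918 ± 46.2 to 859 ± 62.4 (p = 0.0284). The count in sham mice was 7 without saline sham replicate 7, 2 without any of saline sham replicates 5, 8 and 10 or memantine sham replicate 2, 1 when memantine sham replicate 8 was left out and 0 for memantine sham replicate 6. In HF-HI mice it was 4 without memantine HF-HI replicate 10, and 1 or 0 when saline HF-HI replicate 3 or 10 was left out. These comparisons share the saline or memantine libraries with the impact comparisons.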

How the data were processed

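Cortex RNA of 40 libraries in 4 groups was analysed, with groups taken from the labels. Per the authors' methods, ribosomal RNA was depleted with a stranded kit, reads were aligned to mm10 with STAR, counted per RefSeq transcript with eXpress and normalised with DESeq2. The labels instead name HISAT2 and StringTie, and which was used for this table could not be settled. The authors deposited log2 variance-stabilised values. These were inverted with their floor of 10.36 to normalised counts, and 100% of values under 5000 were then whole reads divided by a size factor (tolerance 0.05). Size factors ran from 0.859 to 1.141 and reads per library from 13322404 to 17529644. The lowest mean count was 549, so transcripts below it were not analysed here. Symbols, for 6822 of 6831 transcripts, and positions came from RefSeq and GENCODE on GRCm38.

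The deposited log2 values were tested with limma 3.58.1 in R 4.3.3 (lmFit, eBayes with a trend), with a term per group and no covariate, two-sided, and called at an unadjusted p under 0.05, the criterion of the study, and at a Benjamini-Hochberg adjusted p under 0.1 over all transcripts. Shares and single values used permutation tests with 100000 resamples. The fit was tested on simulated data. No batch is named in the labels. The members and lists were chosen with earlier results of these data known. Named were all members, the 5 transcripts most and 3 least correlated with Slc16a1, and in each comparison up to 3 higher and 3 lower list transcripts with the smallest p under 0.05. Alternatives were another scale, other scalings, summed transcripts, a replicate block, 2-group fits, a filter at a mean count of 1000, robust priors, library weights, stricter thresholds and each library left out.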

Additional observations from a re-analysis of the deposited data

Results flagged for a closer look

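Ldhb in saline HF-HI replicate 7 stood at 4881 normalised reads, apart from the other 9 libraries of its group, with a gap of 0.51 of the range above the 95% limit of Dixon's test. It was the only 1 of 36 member groups to do so, and chance flags about 1 in 20. The change of Mxi1 with impact was larger under memantine than under saline by 0.12 on the deposited log2 scale (limma, p = 0.0337, Benjamini-Hochberg adjusted p = 0.999), and that of Pfkm was smaller (difference -0.062, p = 0.0449, adjusted p = 0.999). These were 2 of 13 list transcripts named in the report whose difference between the drugs was tested, and neither passed the adjustment. These transcripts had been named for an unadjusted p under 0.05 in a comparison that enters the difference, Mxi1 for impact under memantine and Pfkm for memantine in sham mice, so the p-values of the difference are not independent of that choice.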

How the results depend on the processing

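The Slc16a1 change under saline was 0.28 on the log2 count + 1 scale, and 0.09 to 0.11 with each library left out, against 0.10. It had no value with only transcripts of mean count 1000 or more. Its memantine p stayed above 0.05 in all 9 alternatives (0.145 to 0.270) and 20 left-out fits (change 0.02 to 0.04, p 0.0631 to 0.375). On the count scale its drug changes were 0.07 in sham and -0.14 in HF-HI mice.

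Replicate numbers did not pair the samples: over 60 same-number pairs the median r of deviations was -0.00029 (range -0.130 to 0.160), and 3 of 40 libraries correlated best with their own number. With a replicate block, members called were 1 of 9 for impact under memantine, 1 of 8 for memantine in sham and 2 of 8 in HF-HI mice, since Slc2a3 passed for impact under memantine (p = 0.0467) and for memantine in HF-HI mice (p = 0.0419), list transcripts 8, 6, 3 and 2 in the order of the report, and Slc16a1 under memantine had p = 0.229.

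Members called for impact under memantine were 1 with library weights, and 0 to 1 with libraries left out. For memantine in sham mice they were 0 with library weights or p under 0.01 (left out 0 to 1), and 1 with quantile normalisation, which was Pfkp (p = 0.0151) in place of Hk1 (p = 0.0762). In HF-HI mice they were 2 with quantile normalisation and 0 with transcripts summed or p under 0.01 (left out 0 to 2). Members higher with impact under saline, and those with a lower change under memantine than under saline (4 each in the full fit), were 3 to 5 with libraries left out. List transcripts called for impact under saline were 5 with the 1000 filter and 2 at p under 0.01 (left out 5 to 12), and under memantine 3 summed and 2 at p under 0.01 (left out 3 to 6). In sham mice they were 1 with quantile normalisation, 7 with library weights and 0 at p under 0.01 (left out 0 to 7), and in HF-HI mice 0 with the filter or p under 0.01 (left out 0 to 4).

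Directions near 0 reversed, with no call. Quantile normalisation gave -0.0020 for Slc2a3 and -0.019 for Pkm M1 in sham mice and 0.0040 for Pfkp in impact under memantine. Library weights gave -0.0015 for Ldhb and -0.0075 for Pkm M1 in the latter. Summing replaced the Pkm transcripts by their total, which gave 0.0074 in HF-HI and 0.0014 in sham mice and is no reversal of either transcript. With libraries left out, ranges crossed 0 in sham mice for Slc2a1 (-0.0065 to 0.031), Slc2a3 (-0.0090 to 0.0089), Pkm M1 (-0.0052 to 0.018) and Pkm M2 (-0.032 to 0.012), in HF-HI mice for Ldha (-0.0027 to 0.019) and Pfkp (-0.012 to 0.00083), and for impact under memantine for Ldhb (-0.012 to 0.013) and Pkm M1 (-0.0097 to 0.012). The causes were not tested beyond what each alternative's construction shows. Counting noise amounts to 4.27% of the level for the least abundant transcript, which limits small changes there.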
